A study of Homo sapiens with 2 samples.

Results

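Of the 20985 genes in the deposited expression table, 30 carried a symbol of the semaphorin, plexin or neuropilin families and were selected by symbol alone: 19 semaphorins, 9 plexins and both neuropilins. They were compared between HCC827 ZDR3, a gefitinib-resistant derivative, and the parental line HCC827, an established lung adenocarcinoma line with an activating EGFR mutation. Gefitinib inhibits the EGFR tyrosine kinase. The derivative was raised from HCC827 in gefitinib that started at 10 nM for 1 month and went up 3-fold each month to 1 µM, and 3 colonies were then taken. The labels state neither how ZDR3 relates to these colonies nor whether drug was present at harvest. Each group held 1 library of polyadenylated RNA, so no difference has a replicate check and no p-value is given. Every difference below is one between these 2 libraries.

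Semaphorins are extracellular guidance cues that were first known for steering growing axons and also act on epithelial, vascular and immune cells. Class 3 members are secreted, classes 4, 5 and 6 span the membrane, and class 7 is held by a lipid anchor. Plexins are their main receptors and carry a cytoplasmic GTPase-activating domain that acts on small GTPases of the RAS and RAP families. Most class 3 semaphorins need a neuropilin to bind the ligand beside an A plexin, and neuropilins also bind VEGF.

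Levels are normalised reads, where 1 unit stood for 138 reads in the resistant and 143 reads in the parental library. The resistant library held 243549870 gene reads and the parental library 257192607. The log2 ratio sets the resistant over the parental level, each plus 1 unit, which understates the ratio of low genes. A gene was called expressed where either level reached 1. An expressed gene was called higher where its log2 ratio was 1 or more and lower where it was -1 or less, that is from 2-fold on. Plain ratios of levels are given with exact 95% (Clopper-Pearson) intervals, which cover counting error only.

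The labelled cell type was checked against markers. Of 9 markers of lung adenocarcinoma epithelium, 8 were expressed, and 7 of the 8 were called lower, against 9.68% of all expressed genes. The markers had a summed level of 5625 in the resistant and 14228 in the parental library, most of it from keratins. NKX2-1, CDH1 and EPCAM had log2 ratios of -3.22, -3.11 and -3.06, while KRT7, the expressed marker not called, was at -0.39. Leukocyte markers summed to 0.799 in resistant and 0.441 in parental cells, with CD3E at 0 reads in both, and the 4 endothelial markers measured summed to 1.23 in the resistant and 0.742 in the parental library. Fibroblast markers summed to 1.90 in the resistant and 9.53 in the parental library, nearly all of it COL1A1. Neuronal and glial markers summed to 28.6 in resistant and 45.0 in parental cells, nearly all of it SYT1. In bulk RNA, fewer cells with a transcript and less of it per cell cannot be told apart. The part that the lower epithelial programme has in the semaphorin results was not tested.

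Of the 30 members 25 were expressed. In the resistant library 9 of the 25 were called lower, or 36.0%, against 9.68% of all 13777 expressed genes. Another 2, or 8%, were called higher, against 10.6% of all expressed genes. The 9 lower members were SEMA3A, SEMA3F, SEMA4A, SEMA4B, SEMA4G, SEMA6B, PLXNB2, PLXNB3 and NRP2, and the 2 higher ones SEMA3C and SEMA6A. The median log2 ratio of the 25 was -0.56, beside -0.03 over all expressed genes. Below 0 lay 17 members and above it 8, where 7190 of all expressed genes lay below and 6587 above. The members' median was -0.33 with the median of their chromosomal neighbours subtracted, -0.28 over 29 members at a minimum level of 0.1, and -0.23 over all 30 members. Members ranged from -3.97 to 5.71. Levels of a gene that passed the minimum through 1 library alone had to differ, so these counts are a description. With 1 unit added, a gene below 1 in both libraries cannot reach a log2 ratio of 1 or -1. Setting no minimum level therefore could not change the 11 called members.

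**Figure D1:**
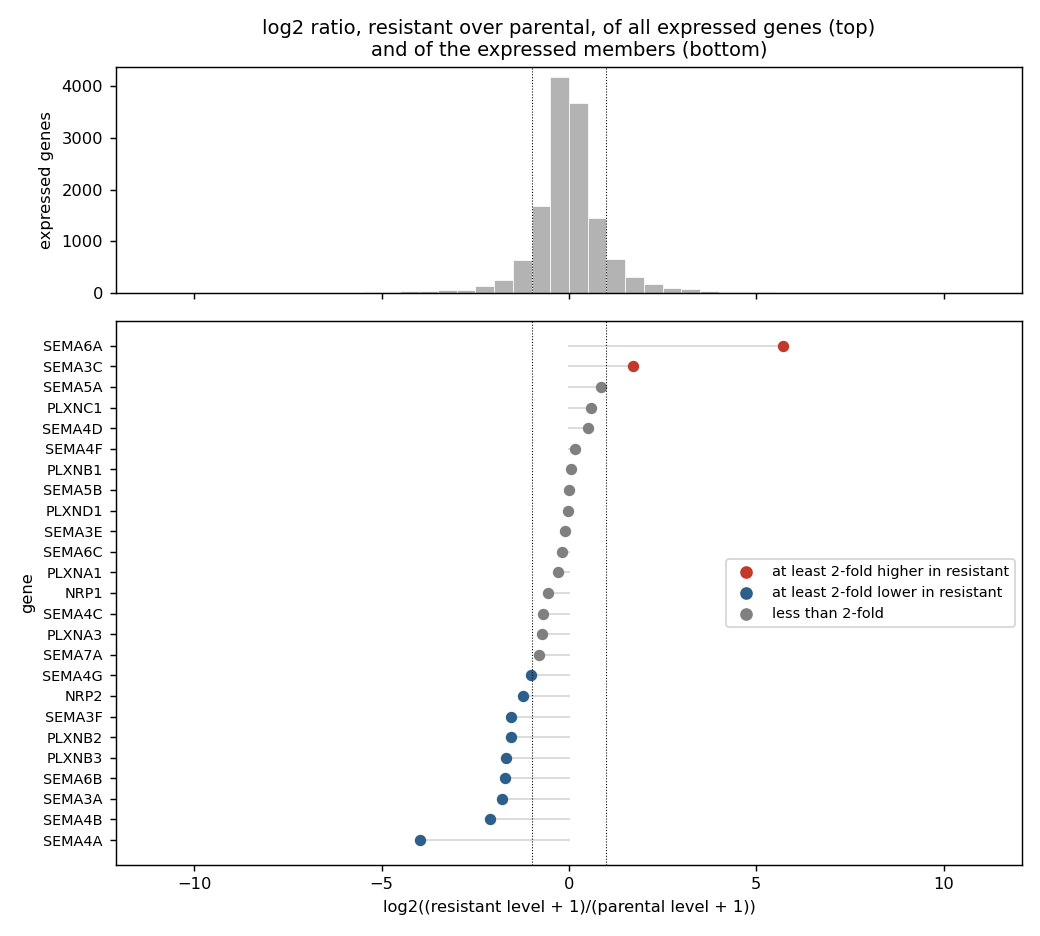
Top, number of expressed genes by log2 ratio, resistant over parental, in bins of 0.5. Bottom, the log2 ratio of each of the 25 expressed members, with dotted lines at -1 and 1; SEMA6A at 5.71 and SEMA4A at -3.97 lie farthest from 0.

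Promoter sequence is shown for 4 of the lower members: SEMA4A, which had the lowest ratio, the co-receptor NRP2, the receptor PLXNB3 and the secreted ligand SEMA3F. The windows run from 250 bases before to 50 bases after a RefSeq transcript start on GRCh38.p14, 5′ to 3′ on the plus strand. Capitals mark the E-box letters CACCTG or, read on the other strand, CAGGTG, which the repressor ZEB1 is known to bind. ZEB1 stood at 106 in the resistant and 6.10 in the parental library.
SEMA4A, chr1:156149694-156149993: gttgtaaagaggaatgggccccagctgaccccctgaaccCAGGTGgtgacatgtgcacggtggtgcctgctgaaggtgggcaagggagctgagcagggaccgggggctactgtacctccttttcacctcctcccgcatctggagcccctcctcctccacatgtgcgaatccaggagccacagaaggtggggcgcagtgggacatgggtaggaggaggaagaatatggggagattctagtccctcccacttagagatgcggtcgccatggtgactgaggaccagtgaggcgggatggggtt
PLXNB3, chrX:153763999-153764298: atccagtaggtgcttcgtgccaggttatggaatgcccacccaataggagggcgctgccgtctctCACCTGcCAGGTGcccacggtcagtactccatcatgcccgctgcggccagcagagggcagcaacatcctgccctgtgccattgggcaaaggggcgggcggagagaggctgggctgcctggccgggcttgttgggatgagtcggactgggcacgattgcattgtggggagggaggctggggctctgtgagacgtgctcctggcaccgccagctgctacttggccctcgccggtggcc
SEMA3F, chr3:50154808-50155107: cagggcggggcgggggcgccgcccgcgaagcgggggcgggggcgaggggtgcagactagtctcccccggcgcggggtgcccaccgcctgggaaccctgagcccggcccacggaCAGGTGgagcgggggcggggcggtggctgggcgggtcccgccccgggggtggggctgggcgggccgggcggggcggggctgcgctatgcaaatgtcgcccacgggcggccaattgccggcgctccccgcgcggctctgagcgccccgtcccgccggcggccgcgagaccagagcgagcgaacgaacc
NRP2, chr2:205682251-205682550: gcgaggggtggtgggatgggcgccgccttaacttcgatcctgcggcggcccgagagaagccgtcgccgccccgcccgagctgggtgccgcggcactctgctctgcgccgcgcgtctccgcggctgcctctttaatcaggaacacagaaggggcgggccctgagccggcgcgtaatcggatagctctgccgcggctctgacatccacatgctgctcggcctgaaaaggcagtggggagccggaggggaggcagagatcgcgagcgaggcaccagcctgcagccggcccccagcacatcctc
In the PLXNB3 window, 2 E-boxes in opposite orientation stood with 1 base between them, starting 186 and 179 bases before the transcript start. The SEMA4A window shown held 1, at 211 bases before the start, the SEMA3F window shown held 1, at 137 bases before it, and the NRP2 window held none. SEMA3F had 3 windows, and the others held no E-box. A second SEMA4A window, of its 4, had another E-box after the start. RefSeq windows were found for 26 of the 30 members, 43 in all. An E-box stood in 7 of the 43 (16.3%), against 20.6% of all 35116 windows. It stood in 4 of the 15 windows of lower members and 0 of the 2 windows of higher members. Of expressed members called neither way, 2 of the 19 windows held it, and of members below the minimum 1 of 7. Among the 7 lower members with a window only 3 had an E-box, and all 3 are among the 4 shown. The lower members SEMA4B, SEMA4G and PLXNB2 had windows without one, like NRP2. The AP-1 letters TGANTCA, which JUN dimers are known to bind, were searched because the series names JUN, whose level was 232 in the resistant and 49.1 in the parental library. They stood in 1 member window, of PLXNC1, and in 7.71% of all windows. AP-1 letters and E-boxes did not share bases in any member window. A match in such a window is a description of its letters.

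The secreted class 3 semaphorins went apart. SEMA3C, a ligand that signals through both neuropilins, was at 149.7 in the resistant and 45.1 in the parental library, 3.32-fold higher (interval 3.23 to 3.42, log2 ratio 1.71). SEMA3A, the classic repellent that binds NRP1, was at 8.97 in the resistant and 33.3 in the parental library, 3.71-fold lower (3.48 to 3.95, log2 ratio -1.78). SEMA3F, which prefers NRP2, was at 5.73 in the resistant and 18.6 in the parental library, 3.24-fold lower (2.99 to 3.51, log2 ratio -1.54). These differences exceed counting error by far, but spread between cultures is unknown. SEMA3E, which binds PLXND1 without a neuropilin, was at 33.0 in resistant and 35.4 in parental cells, a log2 ratio of -0.10. SEMA3G had 78 reads in the resistant and 70 in the parental library, and its interval of 0.827 to 1.62 held 1. SEMA3D had 0 reads in the resistant and 3 in the parental library. SEMA3G and SEMA3D were below the minimum level in both libraries.

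Per kilobase of transcript, which allows different genes to be set side by side, SEMA3C had the highest level of the class in both libraries, at 28.9 units per kb in the resistant and 8.71 in the parental library. SEMA3E, SEMA3F and SEMA3A were at 4.55, 1.51 and 1.09 in the resistant and 4.88, 4.88 and 4.05 in the parental library. Summed per kb, the class reached 36.2 in the resistant and 22.6 in the parental library. It took 24.1% of the summed semaphorin level per kb in the resistant and 8.47% in the parental library. The sum over all semaphorins was itself lower in the resistant library, at 150.2 against 267, so the share differed more than the class level.

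**Figure D2:**
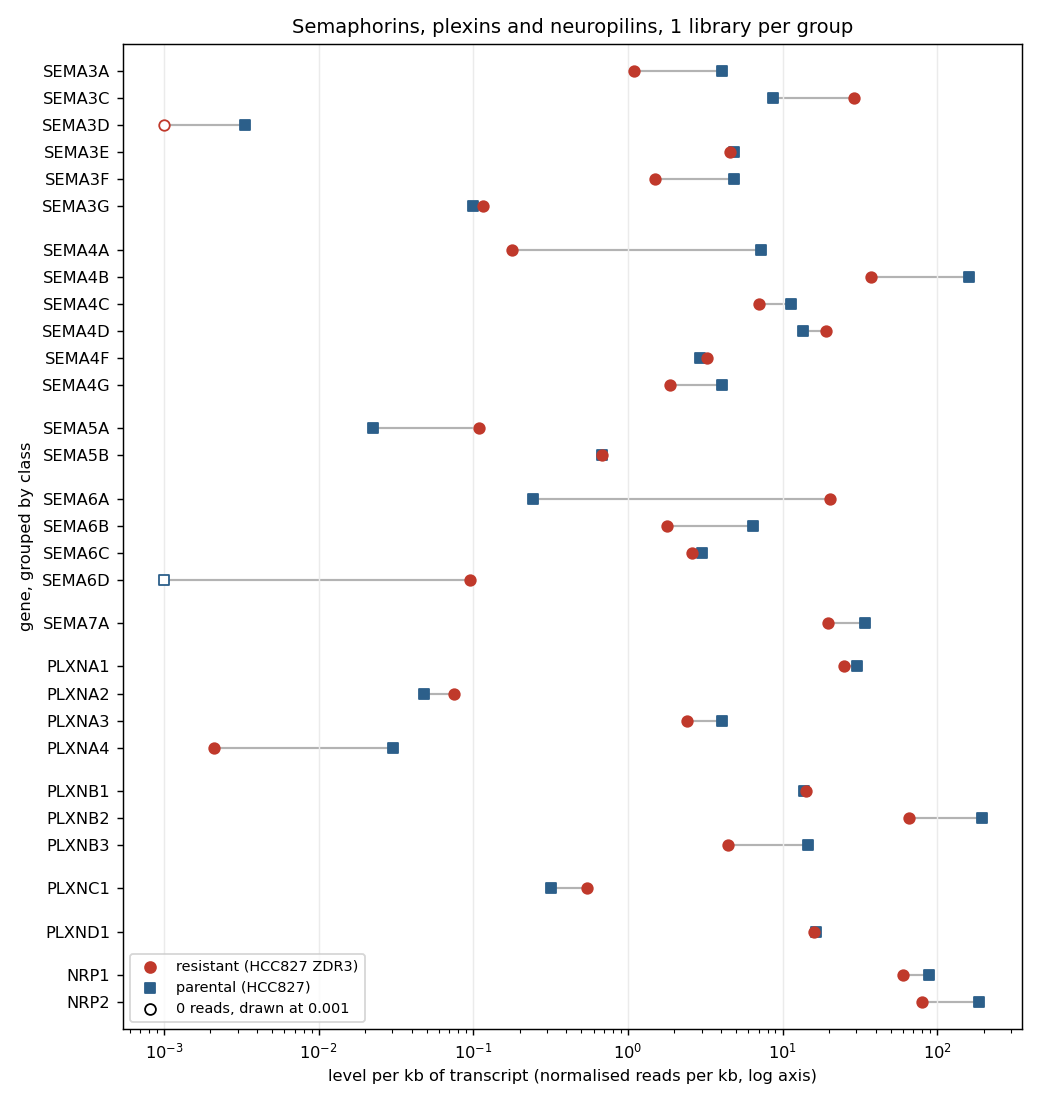
Level of each of the 30 members per kb of its longest annotated transcript (log axis), resistant library as red circles and parental as blue squares, grouped by class. The widest gaps with reads in both libraries are those of SEMA6A (20.2 resistant, 0.242 parental) and SEMA4A (0.178 resistant, 7.26 parental).

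Of the 6 class 4 semaphorins, membrane ligands that act mainly on B plexins, 3 were called lower and 0 higher. Over all expressed genes 9.68% were called lower and 10.6% higher. SEMA4A, known for its part in T cell responses, was at 0.589 in the resistant library (81 reads) and 24.0 in the parental library (3424 reads). It was 40.7-fold lower (32.7 to 51.4, log2 ratio -3.97), and 120 of the 13777 expressed genes, itself included, had a ratio at or below it. SEMA4B was at 142 in the resistant and 611 in the parental library, 4.30-fold lower (4.23 to 4.36, log2 ratio -2.10). SEMA4B nevertheless had the highest level per kb of all semaphorins in both libraries, at 37.4 in the resistant and 161 in the parental library.

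SEMA4G, a ligand of PLXNB2 in mice, was at 7.70 in the resistant and 16.6 in the parental library, a log2 ratio of -1.01 at the edge of the 2-fold limit. Of its annotated exon bases 22.3% overlap MRPL43 on the opposite strand, which stood at 131 in resistant and 140 in parental cells, and the strand setting of the counting is not given, so the value of SEMA4G is uncertain. Annotated exons of other genes touch those of 9 of the 30 members, by at most 4.87% of the exon bases for a single other gene except for SEMA4G and PLXNB3. SEMA4C, a PLXNB2 ligand, was at 24.9 in the resistant and 40.5 in the parental library (log2 ratio -0.68). SEMA4D, or CD100, the ligand of PLXNB1, was at 109 in the resistant and 76.8 in the parental library (0.49), and SEMA4F at 19.6 in resistant and 17.5 in parental cells (0.15). SEMA4D and SEMA4F were the class 4 members above 0.

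SEMA6A was the member with the largest difference. This membrane ligand of PLXNA2 and PLXNA4 was at 139 in the resistant library (19090 reads) and 1.67 in the parental library (238 reads), 83.3-fold higher (73.3 to 95.0, log2 ratio 5.71). Of the 13777 expressed genes, 18, itself included, had a log2 ratio at least as high. The other class 6 members differed from it and from each other. SEMA6B was at 7.14 in the resistant and 25.5 in the parental library, 3.58-fold lower (3.34 to 3.85, log2 ratio -1.71), and SEMA6C was at 9.94 in the resistant and 11.4 in the parental library (-0.18). SEMA6D, a ligand of PLXNA1, had 80 reads in the resistant and 0 in the parental library. It was 27.7-fold higher against the set floor of 3 reads in the parental library, but at 0.581 it was below the minimum level. Annotated antisense transcripts share 2.45% and 0.529% of the exon bases of SEMA6A.

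The 2 class 5 genes, whose products carry thrombospondin repeats, were low. SEMA5A was at 1.29 in the resistant (177 reads) and 0.266 in the parental library (38 reads), a plain ratio of 4.84 (3.39 to 7.06) and a log2 ratio of 0.85 after the added unit. SEMA5B was at 3.36 in resistant and 3.35 in parental cells, and its interval of 0.881 to 1.14 held 1. SEMA7A, the lipid-anchored ligand of PLXNC1 and of integrins with a beta-1 chain, was at 66.5 in the resistant and 116 in the parental library (log2 ratio -0.79).

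The make-up of the semaphorins differed between the libraries. Summed per kb, the 19 semaphorins reached 150.2 in the resistant and 267 in the parental library. SEMA4B made up 24.9% of this sum in the resistant and 60.1% in the parental library. SEMA3C took 19.3% in the resistant and 3.26% in the parental library, and SEMA6A took 13.4% in the resistant and 0.0907% in the parental library. By level per kb, SEMA6A ranked 3 among the 19 in the resistant library and 15 in the parental library, while SEMA4A ranked 15 in the resistant and 6 in the parental library. SEMA7A held a like share in both, 13.1% in resistant and 12.8% in parental cells. By class, the class 4 share was 45.8% in the resistant and 74.8% in the parental library, and the class 6 share was 16.4% in the resistant and 3.61% in the parental library.

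**Figure D3:**
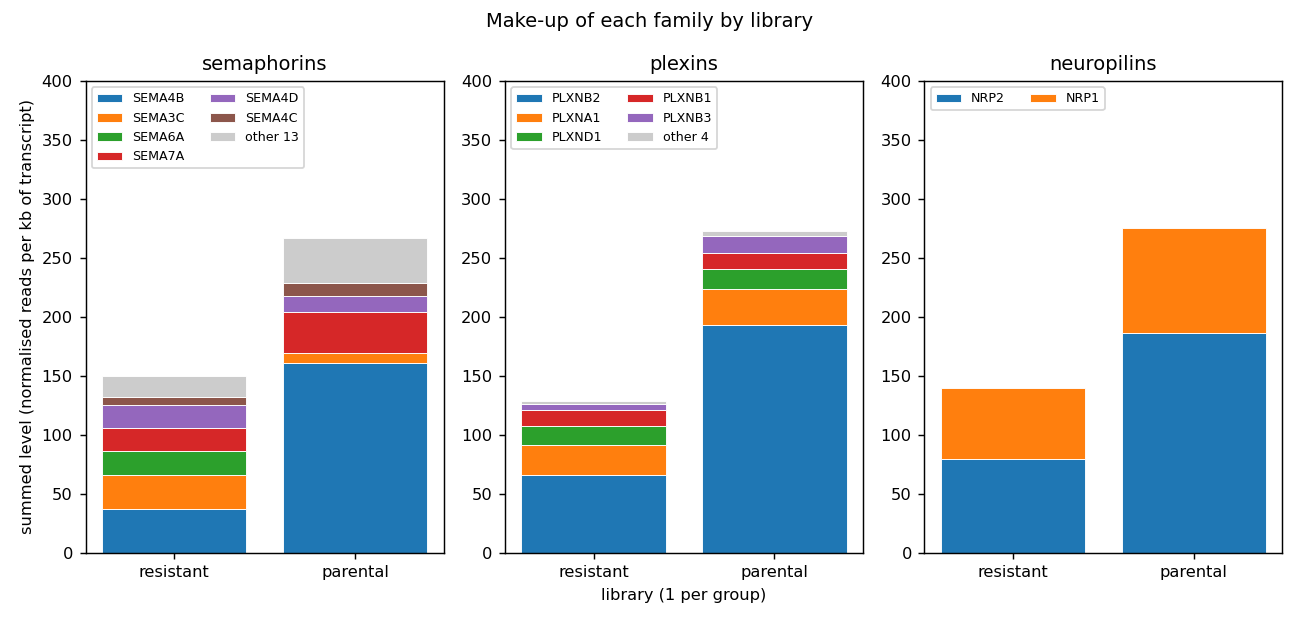
Summed level per kb of transcript of the semaphorins, plexins and neuropilins, with the resistant library left of the parental one in each panel and colours for single genes. The resistant sums are 150.2 for semaphorins, 129 for plexins and 139.8 for neuropilins, and the parental sums 267, 273 and 275, with SEMA4B, PLXNB2 and NRP2 as the largest parental parts.

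Among the 9 expressed plexins and neuropilins 0 were called higher and 3 lower, beside 10.6% and 9.68% of all expressed genes. Both neuropilins had lower levels in the resistant library. NRP2, the co-receptor of SEMA3F and of VEGFC, was at 532 in the resistant and 1244 in the parental library, 2.34-fold lower (2.32 to 2.36, log2 ratio -1.22). NRP1, the co-receptor of SEMA3A and VEGFA, was at 352 in the resistant and 520 in the parental library, a log2 ratio of -0.56. Per kb, NRP1 made up 42.8% of the neuropilin level in the resistant and 32.1% in the parental library.

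The B plexins, which also associate with the receptor tyrosine kinases MET and ERBB2, divided. PLXNB2 was at 422 in the resistant and 1235 in the parental library, 2.93-fold lower (2.90 to 2.96, log2 ratio -1.55). PLXNB3, the receptor of SEMA5A, was at 28.4 in resistant and 92.9 in parental cells, 3.27-fold lower (3.15 to 3.39, log2 ratio -1.67). PLXNB1, the receptor of SEMA4D, was at 104 in the resistant and 101 in the parental library (log2 ratio 0.05). SRPK3 lies on the same strand and its annotated exons share 20.4% of the exon bases of PLXNB3. SRPK3 itself was at 3.53 in the resistant and 8.71 in the parental library. How reads in the shared bases were counted is not given. PLXNB2 had the highest level per kb of all plexins in both libraries, 66.1 in the resistant and 194 in the parental library. It made up 51.3% of the plexin sum in resistant and 70.8% in parental cells.

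The A plexins, partners of the neuropilins, had 2 expressed members. PLXNA1 was at 227 in the resistant and 276 in the parental library (log2 ratio -0.28) and PLXNA3 at 26.2 in the resistant and 44.2 in the parental library (-0.73). The receptors to which SEMA6A is known to bind were scarce. PLXNA2 had 118 reads in the resistant and 78 in the parental library, and PLXNA4 had 4 reads in resistant and 60 in parental cells, a ratio of 0.0692 (0.0183 to 0.187), so both stayed below the minimum level in both libraries. PLXND1, the receptor of SEMA3E, was at 114 in the resistant and 117 in the parental library (log2 ratio -0.04), and PLXNC1, the receptor of SEMA7A, was at 4.02 in resistant and 2.34 in parental cells (0.59). Summed per kb, the 9 plexins reached 129 in the resistant and 273 in the parental library.

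Ligands and their known receptors can be set side by side. SEMA3F and its receptor NRP2 were both called lower. SEMA4D was at 0.49, while its receptor PLXNB1, at 0.05, was close to 0. SEMA5A was at 0.85, while its receptor PLXNB3 was lower. SEMA3E and PLXND1 were within 0.10 of 0 on the log2 scale. SEMA6A was higher while PLXNA2 and PLXNA4 were below the minimum. SEMA3C was higher while NRP1 (-0.56) and NRP2 (-1.22) had ratios below 0. SEMA7A (-0.79) and PLXNC1 (0.59) went opposite ways. SEMA3A and NRP1 both had ratios below 0, as did SEMA4C, SEMA4G and PLXNB2. The SEMA6D ligand of PLXNA1 (-0.28) was below the minimum. The lower ligands SEMA4A, SEMA4B and SEMA6B are among those not paired here. All values are RNA levels in 1 cell population, and whether a pair acts in it was not tested.

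The members were set beside their chromosomal neighbours. The 9 lower members lay on 9 different chromosomes. The median log2 ratio of 40 flanking expressed genes, 20 to each side, ranged from -0.42 to 0.33 over the 25 expressed members. With it subtracted, SEMA6A was at 5.49, SEMA3C at 1.90, SEMA4A at -3.65, SEMA4B at -1.99, PLXNB2 at -1.53 and NRP2 at -1.10, while SEMA4G was at -0.96 and within the 2-fold limit. The expressed genes next to SEMA6A, COMMD10 and DTWD2, had log2 ratios of 0.66 and 0.56. Those next to SEMA4A, LMNA and SLC25A44, had ratios of -0.69 and -0.60. Some called members had an adjacent gene past 2-fold in the same direction. SEMA6B (-1.71) lies between LRG1 (-3.04) and TNFAIP8L1 (-1.46), and PLXNB3 (-1.67) lies beside SRPK3 (-1.10). The annotated exons of PLXNB3 and SRPK3 overlap on the same strand, so these values may not be independent. PARD3B, next to NRP2, went the other way, at 2.07.

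**Figure D4:**
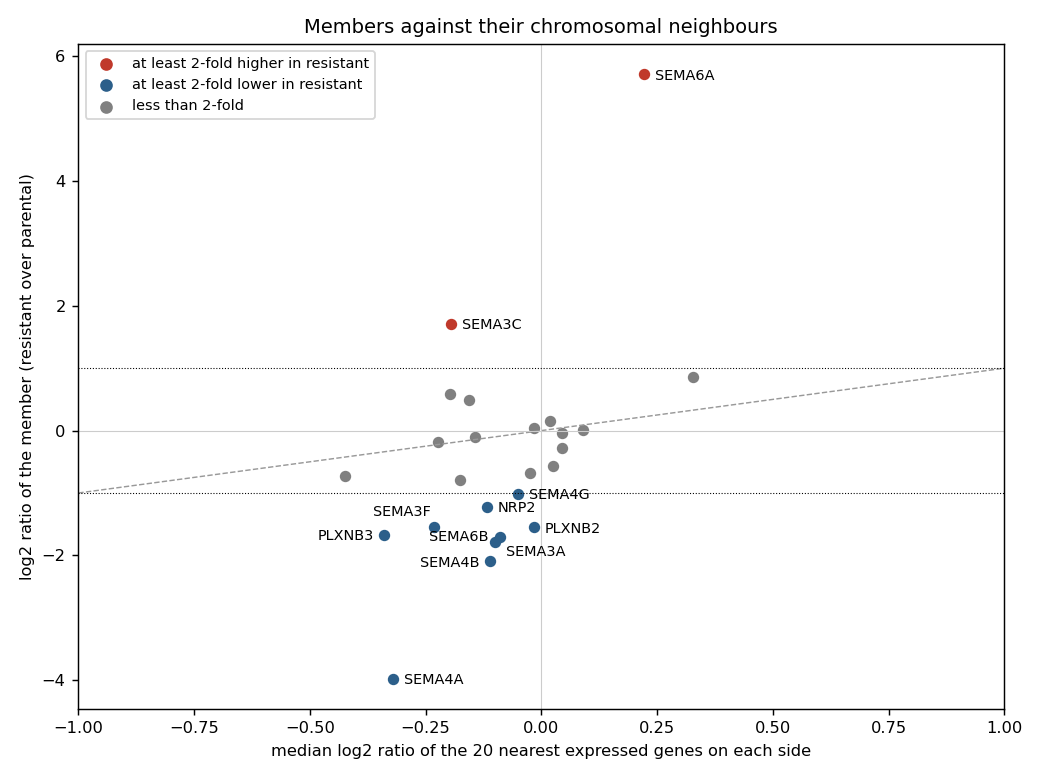
Log2 ratio of each of the 25 expressed members against the median log2 ratio of the 20 expressed genes closest to it to either side, with equality as the dashed line and 2-fold as dotted lines. Neighbour medians lie between -0.42 and 0.33, whereas SEMA6A reaches 5.71 and SEMA4A -3.97.

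SEMA3C, SEMA3E and SEMA3A lie in this order on chromosome 7, in the stretch that leads to the drug efflux gene ABCB1. The stretch showed no common direction. MAGI2 (1.58) and GNAI1 (1.63), the expressed genes before SEMA3C (1.71), were higher in the resistant library as well. The next genes were HGF at -0.84 and CACNA2D1 at 4.77, followed by PCLO at -0.22, SEMA3E at -0.10 and SEMA3A at -1.78. KIAA1324L, next to SEMA3A, was at -1.76, with 0 reads in the resistant and 341 in the parental library. ABCB4 (4.65), ABCB1 (7.72) and RUNDC3B (3.72) came after 4 genes between -0.05 and 0.50. These neighbours were named after their values were seen.

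**Figure D5:**
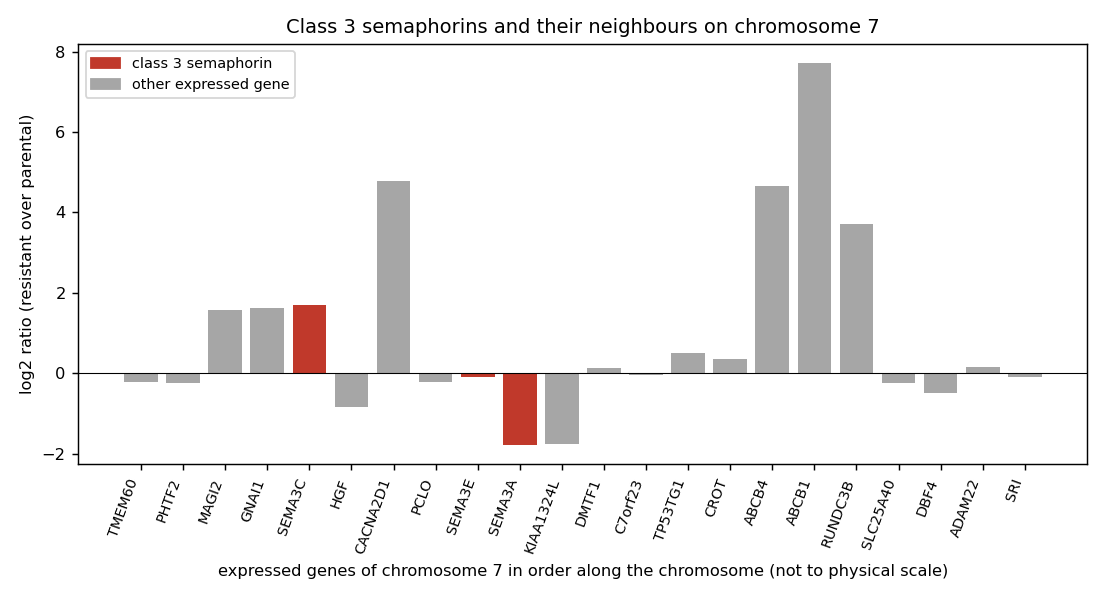
Log2 ratio, resistant over parental, of 22 consecutive expressed genes on chromosome 7 in their order along the chromosome, semaphorins in red. SEMA3C stands at 1.71, SEMA3E at -0.10 and SEMA3A at -1.78, before the tall bars of ABCB4, ABCB1 and RUNDC3B.

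Genes that work with these families were followed by lists, whose counts stand beside 10.6% called higher and 9.68% called lower among all expressed genes. Of 14 expressed receptor partners 3 were called higher and 2 lower, and their median log2 ratio was -0.28. FLT4, a VEGFC receptor, had 141 reads in the resistant and 2 in the parental library, a plain ratio of 73.2 (19.9 to 610), but its log2 ratio after the added unit was just below 1. CHL1, an adhesion molecule that acts with neuropilins, had 955 reads in the resistant and 0 in the parental library. It was 330-fold higher against the set floor of 3 reads. MST1R, the RON kinase that pairs with B plexins, was at 6.45 in the resistant and 38.1 in the parental library (log2 ratio -2.39). HAVCR2 was at 5.47 in resistant and 0.315 in parental cells (2.30) and TIMD4 at 4.48 in the resistant and 0.336 in the parental library (2.04), both of a family of immune receptors with a SEMA4A receptor in mice. The partner lower beside MST1R was ERBB2, at 202 in the resistant and 529 in the parental library.

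Of the 6 expressed genes among VEGF, HGF and TGF-beta ligands that bind neuropilins or pair with the receptors, 0 were called higher and 0 lower on the log2 ratio with the added unit. VEGFC, the lymphatic growth factor, was at 8.20 in the resistant and 12.7 in the parental library (log2 ratio -0.57). The log2 ratio of HGF was -0.84, with 58 reads in the resistant and 220 in the parental library, and that of PGF was 0.64, with 142 reads in the resistant and 44 in the parental library. As plain ratios these low genes were past 2-fold, HGF at 0.274 (0.201 to 0.367) and PGF at 3.35 (2.37 to 4.81). TGFB1 had a log2 ratio of 0.51.

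Of 19 expressed genes of cytoplasmic plexin signalling, 2 were called higher and 4 lower, and the median was -0.01. FYN, a SRC-family kinase active downstream of SEMA3A, was at 234 in the resistant and 16.9 in the parental library (log2 ratio 3.72). MRAS, a small GTPase of the RAS family, was at 7.22 in resistant and 0.0630 in parental cells (2.95). RND1, a GTPase that binds plexins, was at 0.974 in the resistant and 15.5 in the parental library (-3.06), and GIPC1, an adaptor of the NRP1 tail, was at 156 in the resistant and 417 in the parental library (-1.42). The small GTPases RAP1A (-1.12) and RHOD (-1.09) were the other lower members.

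Of 13 expressed genes of the CRMP and MICAL effectors, which link the receptors to microtubules and actin, 3 were called higher and 1 lower, and the median was 0.05. DPYSL3, a CRMP, was at 445 in the resistant and 122 in the parental library (log2 ratio 1.85), and CRMP1 at 13.7 in resistant and 4.89 in parental cells (1.32). CDK5R1, the activator of CDK5, was at 4.17 in the resistant and 1.29 in the parental library (1.18), and the kinase PAK1 at 115 in resistant and 240 in parental cells (-1.05). Among 7 proteases that process semaphorins or their receptors, 1 was called higher and 1 lower, with a median of -0.45. PCSK5, a convertase, was at 58.0 in the resistant and 0.329 in the parental library (5.47), and MMP14 was at 0.625 in the resistant and 20.4 in the parental library (-3.72). FURIN, the main convertase of class 3 semaphorins, was at 56.9 in resistant and 78.3 in parental cells (-0.45). PCSK7 (-0.62) and ADAM10 (-0.46) also lay within 2-fold.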

How the data were processed

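Polyadenylated RNA of 1 resistant (HCC827 ZDR3) and 1 parental (HCC827) culture was sequenced with Illumina chemistry, per the labels' protocols. The submitters' processing notes name TopHat. Its release, the reference genome, the read counter and the strand setting were not given in the sources used here. Per gene and library the authors deposited 1 log2 value, in a table named RPKM. Back-transformed, all values of 1 to 100000 reads were whole multiples, within 0.1 read, of 1 step per library, so the deposited log2 values hold reads times 1 factor and are not divided by length. Values at 0.9 reads were set to 0. The column ending in Prim was read as the parental library.

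Members were found by symbol. Members, lists and rules were taken up with earlier results of these data known. Per-kb levels used the longest GENCODE release 29 basic transcript, found for all 30 members, and gene order came from the same release, which placed 97.8% of expressed genes. Neither need match the authors' annotation, so no gene coordinates are given. Promoter windows are from RefSeq, GRCh38.p14. No count model was used, since each group held 1 library, and, without molecular identifiers, reads need not be independent molecules. The text names all members, and of each list of related genes the 4 expressed genes with the largest absolute log2 ratio. FURIN, ERBB2, FLT4, RAP1A and RHOD, the named epithelial markers and the chromosomal neighbours were added after their values were seen. Python 3.11.15, numpy 2.4.6, pandas 2.3.3 and scipy 1.17.1 were used. The functions for ratios and intervals were also run on simulated counts. These held counting noise only, so they say nothing on spread between cultures.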

Additional observations from a re-analysis of the deposited data

How the results depend on the processing

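Across 9 alternatives (pseudocounts of 0.1 and 5, minimum levels of 0.1, 5 and none, scaling to total reads, subtraction of the overall median, levels per kb, and subtraction of the neighbours' median) the 11 called members kept their direction in all 99 values, and 94 of these stayed past 2-fold. The 5 that did not were SEMA4G, so the lower count was 8 in place of 9 with a pseudocount of 5, both scalings, levels per kb and the neighbours' median. A change of the minimum level leaves the log2 ratio of a gene as it was. The values under those alternatives therefore could not differ and are no check of the ratios. With a pseudocount of 0.1 SEMA5A joined the higher members, which made 3. The count over all expressed genes was 1766 with a pseudocount of 5, against 2796. The median log2 ratio of the members, -0.56, was -0.33 with the neighbours' median subtracted, -0.28 at a minimum level of 0.1 and -0.23 with no minimum, and it stayed between -0.71 and -0.53 under the other 6 alternatives. Following this median was chosen after seeing the data. The overall median moved by less than 0.1 on the log2 scale under every scaling. No paired analysis was possible because each group held 1 library, and for the same reason none could be left out. SEMA3D, SEMA3G, SEMA6D, PLXNA2 and PLXNA4 had at most 118 reads in a library and fell below the minimum level, so they could not be called. For counting error alone, the intervals of PLXNA2 (1.17 to 2.12) and PLXNA4 (0.0183 to 0.187) left out 1, while that of SEMA3G held it.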

Other observations

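Other families of guidance cues went both ways as well. Of 10 expressed slit, netrin and related genes, 2 were called higher (20%) and 4 lower (40%) from 2-fold on, against 10.6% and 9.68% of all expressed genes, and their median log2 ratio was 0.20. SLIT3, a secreted ligand of ROBO receptors, had 1003 reads in the resistant and 0 in the parental library. It was 347-fold higher against the set floor of 3 reads. ROBO1, a receptor of slits, had 0 reads in the resistant and 548 in the parental library, 176-fold lower against the same floor. NTN1, the founding netrin, was at 9.72 in the resistant and 42.1 in the parental library (log2 ratio -2.01), and the netrin receptor UNC5A was at 2.75 in resistant and 0.0770 in parental cells (1.80). The other lower members, named after their values were seen, were NTN4 (-1.79) and ROBO4 (-1.22).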
